A study of Mus musculus with 4 samples.

Results

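Lin28b and 9 genes of let-7 microRNA biogenesis and turnover were followed through an RNA immunoprecipitation (IP) of Flag-tagged Lin28b. The mouse cells are labelled as pancreatic cancer-associated fibroblasts (named 15376CAFs, CAFs below). The members were Lin28b, Drosha, Dgcr8, Xpo5, Dicer1, Ago2, Tut4, Tut7, Dis3l2 and Huwe1. They were taken by gene symbol from the mutant table, and identifiers linked them to the wild-type table, and all 10 of 10 were present in both, out of 14427 genes in the mutant table, 14755 in the wild-type table and 13478 in both. The libraries formed 4 groups of 1 library each: the anti-Flag IP of cells overexpressing a Lin28b mutant deficient in RNA binding (Lin28b-MU, the mutant), the input RNA of the same cells, the anti-Flag IP of cells overexpressing wild-type Lin28b (Lin28b-WT, the wild type), and its input. All groups thus carried an introduced, Flag-tagged Lin28b. The mutated residues, the vector and its promoter, and whether either line came from 1 clone are not given in the sources used here. With 1 library a group there is no replicate error, so every difference below describes single libraries, and none was tested.

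The let-7 microRNAs are transcribed as long primary transcripts, cropped in the nucleus by the nuclease Drosha with its partner Dgcr8, exported by Xpo5, cut to their mature length by Dicer1 and loaded into Ago2. LIN28 proteins block this path. They hold the loop of the let-7 precursor, with paired zinc knuckles on a GGAG motif, and Lin28a recruits the uridylyl transferases Tut4 and Tut7, whose tailed product is degraded by the exonuclease Dis3l2. In human cells LIN28B is also known to hold primary let-7 in the nucleus. Let-7 in turn restrains growth genes, and the pair is known as a developmental switch that tumours can reopen.

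The sequences that this machinery acts on are shown first, because the members bind, cut, export, carry, tail, degrade or host them. RefSeq (GRCm38.p6) lists 9 mature 5p forms for the let-7 and miR-98 hairpins, and all share 1 seed (bases 2 to 8, in capitals). The forms for the hairpins discussed below are these.
let-7a-5p: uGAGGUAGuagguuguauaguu
let-7d-5p: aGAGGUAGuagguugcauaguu
let-7f-5p: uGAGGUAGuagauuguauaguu
let-7i-5p: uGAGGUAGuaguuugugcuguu
miR-98-5p: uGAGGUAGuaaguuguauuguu

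The hairpins themselves differ in the motif. GGAG, searched as these letters on the RNA strand, is present in 9 of the 12 let-7 and miR-98 hairpins (75%) and in 447 of all 1005 microRNA hairpins of the table (44.5%). In 8 of the 11 hairpins with both mature arms listed, a GGAG lies between the arms. The first pair below lies inside the span of Huwe1 (GRCm38 X:151912346-151912428 and X:151913214-151913321, plus strand), 112 kb into the gene, and capitals mark GGAG. The let-7f-2 hairpin holds GGAG between its mature arms, and these letters are not in the miR-98 hairpin.
let-7f-2: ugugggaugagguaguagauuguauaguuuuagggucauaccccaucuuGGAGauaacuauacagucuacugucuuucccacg
miR-98: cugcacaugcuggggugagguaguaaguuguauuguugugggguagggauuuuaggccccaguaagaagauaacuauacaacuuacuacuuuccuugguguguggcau

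The next 4 hairpins lie under or near wild-type peaks described further on. A peak covers let-7d and let-7f-1, while let-7a-1 and let-7i lie 18 and 92 bases outside a peak. The 4 are let-7d (13:48536012-48536114), let-7f-1 (13:48537829-48537917) and let-7a-1 (13:48538179-48538272) on the minus strand of chromosome 13, and let-7i (10:122985640-122985724) on the minus strand of chromosome 10. Each holds 1 GGAG (capitals).
let-7d: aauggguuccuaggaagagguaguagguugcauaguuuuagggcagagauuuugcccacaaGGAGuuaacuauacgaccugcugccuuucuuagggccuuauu
let-7f-1: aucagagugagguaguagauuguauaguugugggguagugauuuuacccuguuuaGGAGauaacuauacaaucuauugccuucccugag
let-7a-1: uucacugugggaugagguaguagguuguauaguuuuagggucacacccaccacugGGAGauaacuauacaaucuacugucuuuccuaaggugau
let-7i: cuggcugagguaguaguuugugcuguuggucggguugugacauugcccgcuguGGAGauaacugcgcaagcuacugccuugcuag

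The members' levels are taken as FPKM (fragments scaled to transcript length and to library size), a unit that no source used here names. On that unit, genes of different length can be set side by side. Read totals are not given. In short single-exon pseudogenes, level times length fell on multiples of 1 step per library for 96.8% to 100% of low values. Each step was the best-fitting of many tried within a set range, which raises these shares. The steps therefore give neither the unit nor the relative depth of the libraries. Of 14 fibroblast markers 7 were listed in both tables, with a summed level of 748 FPKM in the mutant input and 1034 in the wild-type input. Vim, Sparc, Fn1 and S100a4 were at 40.7 to 547 FPKM in the mutant input and 93.8 to 607 in the wild-type input, whereas Pdgfra, Col1a1 and Acta2 were at 0.404 to 0.860 and 0.227 to 1.33. The tables shared 6 of 9 epithelial markers, whose summed level was 1381 FPKM in the mutant input and 2046 in the wild-type input. In the IPs that sum was 625 FPKM in the mutant and 1244 in the wild type. Mutant and wild-type inputs were at 6.77 and 134 FPKM for Muc1, 3.32 and 31.7 for Krt7, and 322 and 665 for Krt19. Cdh1 was at 114 and 219, and Krt8 at 494 and 601. Of the 6, only Krt18 was higher in the mutant input, at 441 and 395. The fibroblast marker S100a4 was at 40.7 and 214. The name CAFs is that of the labels. In each input the epithelial sum lay above the fibroblast sum, and Pdgfra, Col1a1 and Acta2 were low. Whether these levels go with the name was not tested. Of 8 leukocyte and endothelial markers 1 was listed in both. Whether these markers bear on the members was not tested. In bulk RNA, fewer cells of a type and less RNA per cell cannot be told apart.

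**Figure D1:**
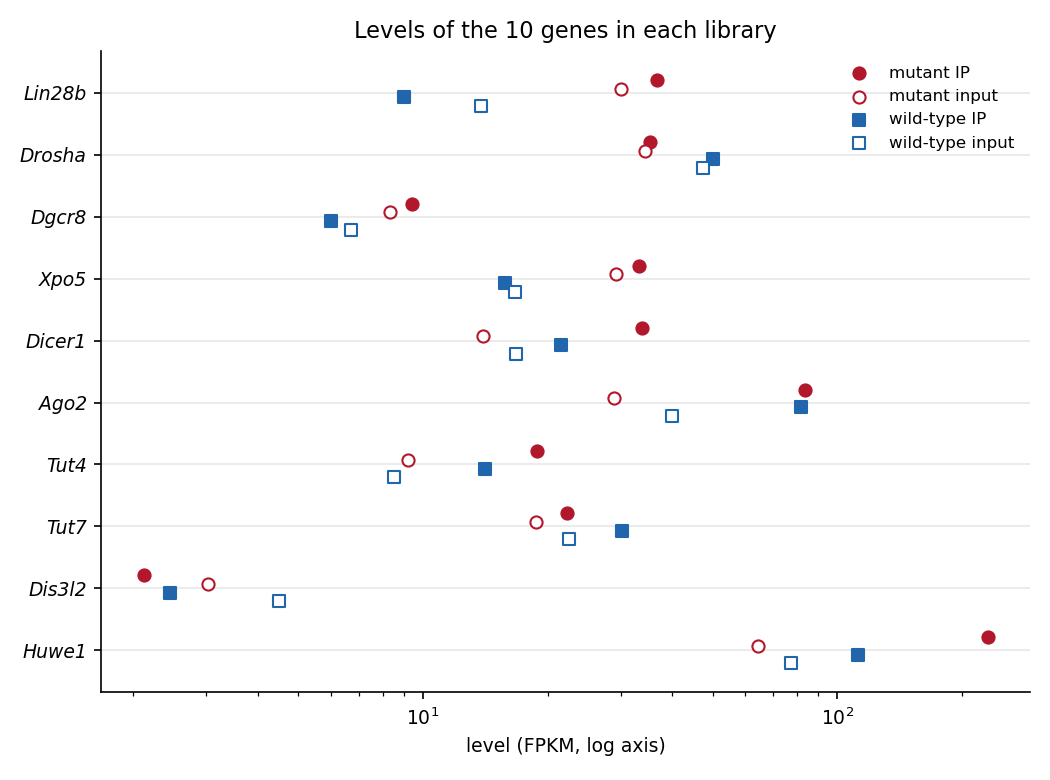
Levels of the 10 genes (FPKM, log axis) in the mutant IP (filled circles), mutant input (open circles), wild-type IP (filled squares) and wild-type input (open squares), 1 library each. Huwe1 stood highest in all 4 libraries, up to 230 FPKM in the mutant IP, and Dis3l2 lowest, between 2.12 and 4.50 FPKM.

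The members spanned a wide range of levels, and their order was similar in the libraries. Huwe1 was the most abundant in each of the 4, and Dis3l2 the least. In the mutant IP the order ran Huwe1, Ago2, Lin28b, Drosha, Dicer1, Xpo5, Tut7, Tut4, Dgcr8 and Dis3l2. Lin28b had rank 3 there and rank 8 in the wild-type IP. The plot of levels by library shows that in the mutant the IP stood well to the right of its input for Huwe1, Ago2, Dicer1 and Tut4. In the wild type this gap was smaller for each of them, and the nuclear steps Drosha, Dgcr8 and Xpo5 lay close to their inputs.

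Recovery was expressed as log2 of IP over input level with 0.01 added to each, and a gene was counted as above or below input at 2-fold. In the mutant, 4 of the 10 members were at least 2-fold above input, namely Huwe1, Ago2, Dicer1 and Tut4, against 6.69% of all genes of that table, and 0 were at least 2-fold below, against 37.8% of all genes. The Tut4 call is lost with a pseudocount of 1 and relative to genes of like span, each at a log2 ratio of 0.96, which leaves 3 members. In the wild type, 1 member, Ago2, was at least 2-fold above input, against 8.59% of all genes, and 0 were below, against 23.3%. The shares over all genes take in short genes, whose ratios ran lower. No share below input was computed for genes of like span. The members' median log2 ratio was 0.27 in the mutant and 0.22 in the wild type, beside medians over all genes of −0.61 and −0.29. All 10 members lay above the median of all genes in the mutant and 8 of 10 did in the wild type. Lin28b and Dis3l2 were the members that lay below it there. Relative to genes of like span, the log2 ratio was negative for Drosha and Dis3l2 in the mutant, at −0.19 and −0.74. In the wild type it was negative for Lin28b, Dgcr8, Xpo5 and Dis3l2, at −0.68, −0.16, −0.09 and −0.94. With each table centred on its own median, the sign of the ratio turned positive for Dis3l2 in the mutant and for Dgcr8 and Xpo5 in the wild type.

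Lin28b, the protein that was pulled down, was also measured as RNA (10:45376620-45486395, minus strand). Its RNA stood at 36.7 FPKM in the mutant IP and 30.01 in the mutant input, against 8.99 in the IP and 13.8 in the input of the wild type. The IP thus lay above its input in the mutant and below it in the wild type, with log2 ratios of 0.29 and −0.62, both short of 2-fold. Across the separately normalised tables, Lin28b was 4.08-fold higher in the mutant IP than in the wild-type IP and 2.18-fold higher in the mutant input than in the wild-type input. Gene levels do not separate RNA of the introduced construct from RNA of the cells' own gene, and no library without the construct was used here. Its paralogue Lin28a was not listed under its symbol.

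The nuclear cropping pair was recovered about as it stood in the input. Drosha, the nuclease (15:12824815-12935291), was at 35.3 FPKM in the mutant IP and 34.3 in the mutant input, and at 49.98 FPKM in IP and 47.4 FPKM in input RNA of the wild type. Its log2 ratios of 0.04 and 0.08 were the closest to 0 of all members in each construct. Dgcr8, its RNA-binding partner (16:18253948-18289246), was at 9.43 in the mutant IP and 8.33 in the mutant input, against 5.998 in the IP and 6.69 in the input of the wild type. The ratio was above 0 in the mutant and below 0 in the wild type, at 0.18 and −0.16.

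Xpo5, the carrier that takes precursor hairpins out of the nucleus (17:46202782-46243598), was at 33.2 FPKM in the mutant IP and 29.3 in the mutant input, against 15.7 and 16.7 in the wild-type IP and input. Its log2 ratios were 0.18 in the mutant and −0.08 in the wild type. Like Lin28b, Xpo5 was more abundant in the mutant cells, 1.76-fold in the inputs.

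Dicer1, which makes the final cut (12:104687742-104751952), was among the members that separated the constructs. It stood at 33.8 FPKM in the mutant IP and 13.9 in the mutant input, and at 21.5 FPKM in IP and 16.8 FPKM in input RNA of the wild type. The IP exceeded the input 2.42-fold in the mutant and 1.29-fold in the wild type, a difference of 0.91 on the log2 scale, just short of 1.

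Ago2, the slicing Argonaute that carries mature microRNAs (15:73095844-73184935), was the member recovered past 2-fold with each protein. It stood at 83.4 FPKM in the mutant IP and 28.9 in the mutant input, and at 81.8 FPKM in IP and 39.997 FPKM in input RNA of the wild type. The folds were 2.88 and 2.04, so the levels in the IPs were nearly equal and the inputs differed more. Its ratio exceeded that of 97.1% of all genes in the mutant and 91.9% in the wild type. The wild-type call is lost relative to genes of like span, where the log2 ratio was 0.93.

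The uridylyl transferases were not recovered alike. Tut4 (4:108459426-108559421) stood at 18.9 FPKM in the mutant IP and 9.20 in the mutant input, and at 14.1 FPKM in IP and 8.51 FPKM in input RNA of the wild type, 2.05-fold and 1.66-fold above input. Tut7 (13:59771561-59823147) stood at 22.3 in the mutant IP and 18.7 in the mutant input, and its wild-type levels were 30.2 after IP and 22.5 before it. Its folds of 1.19 and 1.34 were smaller, and it was, with Drosha, a member whose ratio was lower in the mutant than in the wild type.

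Dis3l2, the exonuclease that degrades uridylated pre-let-7 (1:86703808-87050095), had the lowest ratio in each construct. It stood at 2.12 FPKM in the mutant IP and 3.03 in the mutant input, and at 2.45 FPKM in IP and 4.50 FPKM in input RNA of the wild type, 1.43-fold and 1.83-fold below input. It is the longest member, with a span of 346 kb, and the least abundant.

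Huwe1, a large ubiquitin ligase gene whose span holds let-7f-2 and miR-98 (X:151800807-151935417), showed the largest gap between the constructs. It stood at 230 FPKM in the mutant IP and 64.3 in the mutant input, and at 112 FPKM in IP and 77.4 FPKM in input RNA of the wild type. The folds were 3.58 in the mutant and 1.45 in the wild type, a difference of 1.30 on the log2 scale that was larger than that of 95.6% of all genes. The IP level was 2.05-fold higher in the mutant while the input level was slightly lower there.

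Set against each other, 8 of 10 members had a higher ratio in the mutant than in the wild type. Past a log2 difference of 1 there was 1 member, Huwe1, against 7.37% of all genes, and 0 members were lower by as much, against 26.1% of all genes. The share lower by as much was not computed for genes of like span. The median difference, mutant minus wild type, was 0.35 for the members and −0.32 for all genes. All 10 members lay above that all-gene median. Drosha and Tut7, the members with a lower ratio in the mutant, thus turn to a higher one when each table is centred. Relative to genes of like span, Drosha and Tut7 stayed lower in the mutant, with differences of −0.20 and −0.02.

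**Figure D2:**
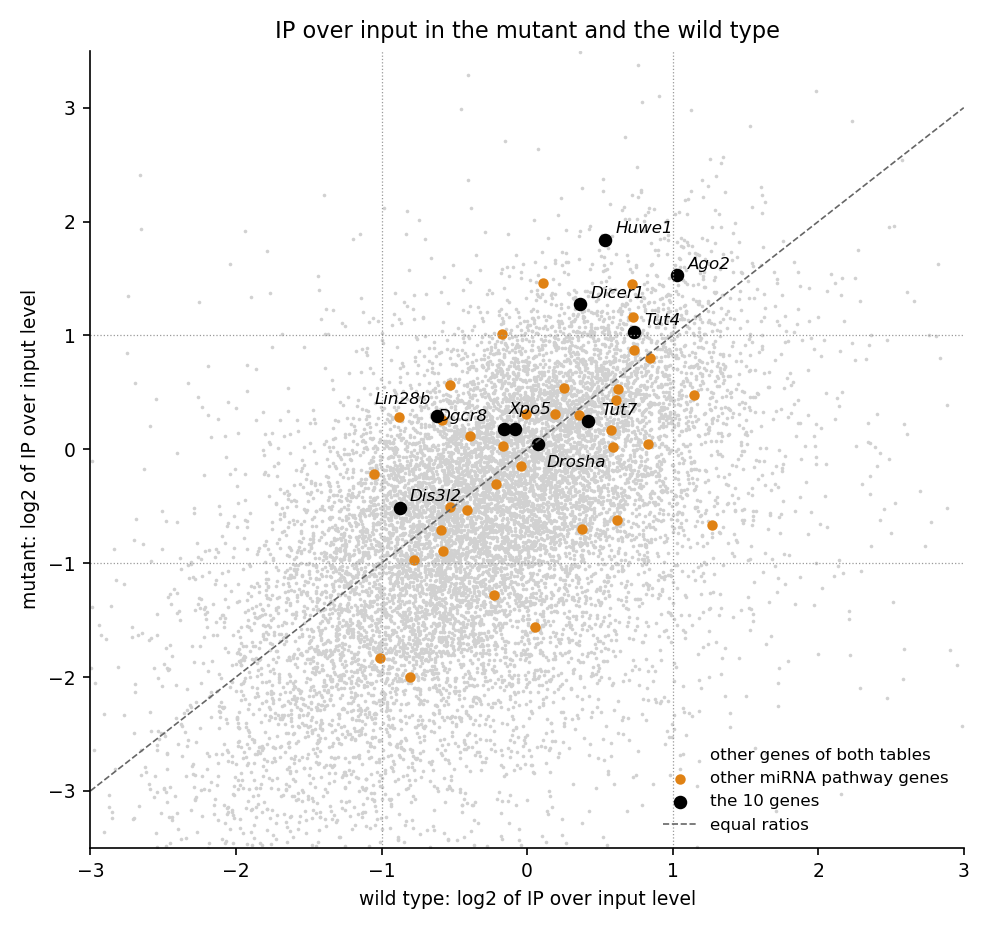
Log2 of IP over input level in the mutant (vertical axis) and the wild type (horizontal axis), 1 library per group, for the 10 members (black), the other microRNA pathway genes (orange) and the genes of both tables (grey; 970 of 13478 lie outside the axes). The dashed line marks equal ratios and dotted lines mark 2-fold. Huwe1, Ago2, Dicer1 and Tut4 lie above the upper dotted line, and Drosha and Tut7 lie just below the dashed line.

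Gene span moved with the ratio in each table. Over all genes, the median log2 ratio ran between −1.83 in the shortest of 10 span classes of equal size and 0.23 in the longest in the mutant, and between −0.86 and 0.06 in the wild type. The members span 35.3 to 346 kb. Among all 4073 genes of both tables within that range, the median ratio was 0.06 in the mutant and 0.06 in the wild type, the median difference was 0.00, and 6.87% had a difference of at least 1. Relative to the genes of their own span class, Huwe1 kept log2 ratios of 1.61 in the mutant and 0.48 in the wild type, Ago2 1.45 and 0.93, Dicer1 1.20 and 0.26, and Tut4 0.96 and 0.67. On that scale Drosha stood at −0.19 and 0.02 and Lin28b at 0.06 and −0.68. The part of gene span in the members' ratios was not tested further.

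**Figure D3:**
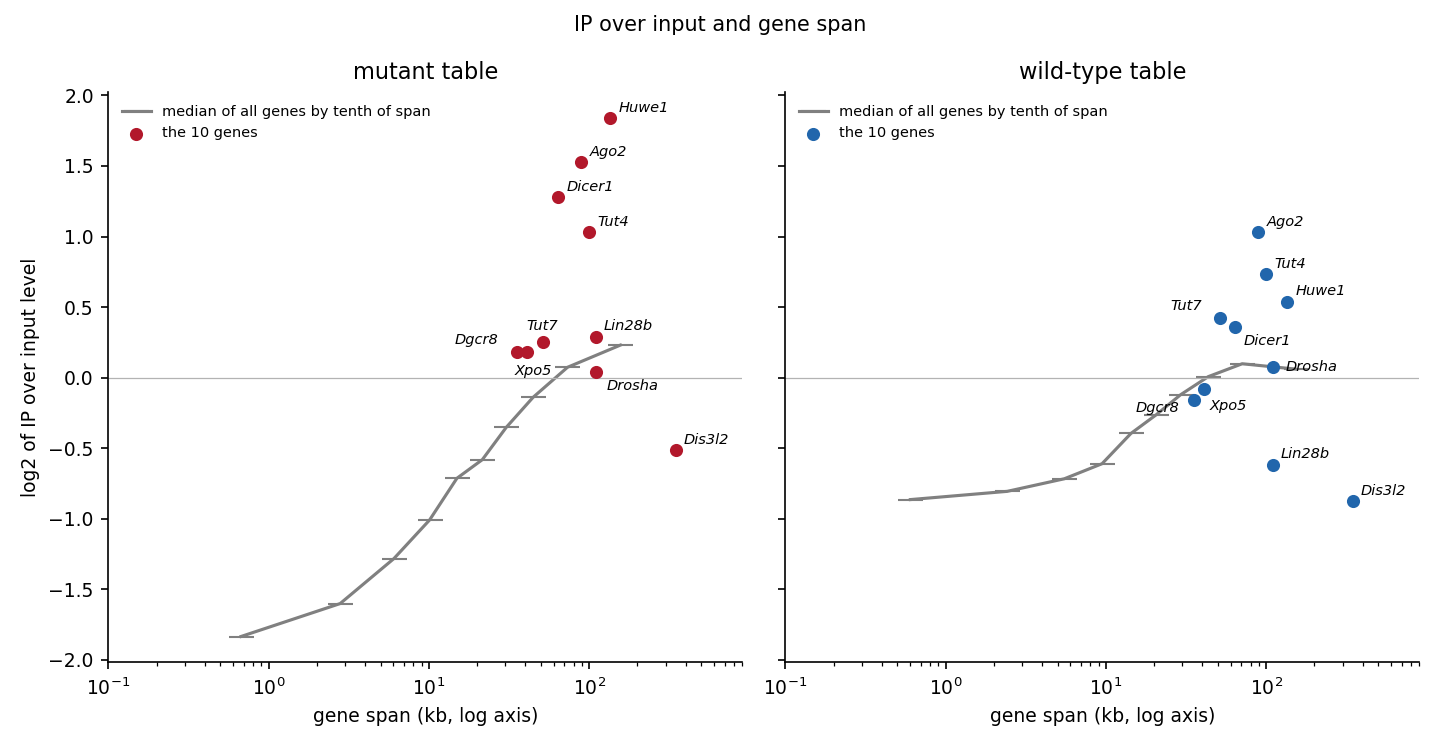
Log2 of IP over input level against gene span (kb, log axis) for the 10 members (points) and the median of all genes in each of 10 classes of gene span (grey line), in the mutant table (left) and the wild-type table (right). Huwe1, Ago2, Dicer1 and Tut4 lie above the grey line on each side, and Dis3l2 lies below it.

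Peaks place recovery along the gene, and the lists differ in length. A peak was given to a member when its summit lay inside the gene span on the gene's strand, and all folds of peaks are the authors' own, with no error. The mutant list, of 15931 peaks, placed 125 in 7 of the 10 members, and the wild-type list, of 11912, placed 53 in 6 of the 10. Over all genes, 17.5% held a mutant peak and 23.1% a wild-type peak. Huwe1 alone carried 71 of the mutant and 30 of the wild-type peaks. Dicer1 carried 23 and 4, Ago2 16 and 7, Tut4 11 and 8, and Tut7 2 and 3. Drosha held 0 mutant peaks and 1 wild-type peak, Lin28b and Dgcr8 held 1 mutant and 0 wild-type peaks each, and Xpo5 and Dis3l2 held none in either list.

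The wild-type peaks of these genes mostly fell where the mutant had peaks too. Of the 53 wild-type peaks in members, 47 overlapped a mutant peak on the same strand (88.7%, exact Clopper-Pearson 95% interval 77.0 to 95.7, counting error only), against 49.6% of the whole wild-type list. Of the 125 mutant peaks, 44 overlapped a wild-type peak (35.2%, 26.9 to 44.2), against 36.2% of the whole mutant list. All 30 wild-type peaks of Huwe1, all 7 of Ago2 and all 4 of Dicer1 were among those shared, and 6 of 8 of Tut4. None of the Tut7 peaks was shared. Peaks of 1 gene share its RNA, so they are not independent.

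In Huwe1 the peaks lay along most of the gene, with 49 of 71 mutant and 22 of 30 wild-type summits in the 3′ 50% of the span. The strongest peak of each list was at the same place (X:151853967-151854227 in the mutant, fold 17.0, and X:151853967-151854195 in the wild type, fold 11.7), 53.3 kb from the gene's start. The median fold was 6.73 in the mutant and 3.17 in the wild type. Neither list had a peak on the hairpins of let-7f-2 or miR-98. The nearest mutant peak (X:151913993-151914323, fold 4.30) lay 0.672 kb past miR-98, and the nearest wild-type peak was 3.56 kb from let-7f-2.

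By fold, Ago2 had a dominant peak near the middle of its span in both lists (15:73138026-73138311 in the mutant, fold 18.4, and 15:73138035-73138311 in the wild type, fold 16.1). The other wild-type peaks of Ago2 had folds of 2.47 to 3.80. Its widest peaks lay nearer the 3′ end. There a mutant peak of 11203 bases (15:73095923-73107125) overlapped wild-type peaks of 7375, 1914 and 1529 bases, so peak counts in Ago2 depend on how this region was split. All Ago2 peaks together covered 14825 bases in the mutant and 11938 in the wild type. In Tut4 the strongest peak was shared as well, with a fold of 18.1 in the mutant and 14.8 in the wild type (4:108526607-108526996 and 4:108526747-108526982). A wild-type Tut4 peak at 4:108495050-108495250 with a fold of 12.5 had no mutant counterpart.

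Dicer1 had 23 mutant peaks to 4 in the wild type. Its mutant peaks reached a fold of 16.6 (12:104729147-104729396), a peak that the wild type lacked, and its 4 wild-type peaks had folds of 2.29 to 3.56. In Tut7 the mutant summits lay 22.6 and 23.3 kb from the gene's start, with folds up to 2.52, and the wild-type summits lay 1.33 to 3.57 kb from it, with folds up to 6.96 (13:59820322-59821192). The only Lin28b peak (10:45381191-45381546), in the mutant list, had its summit at 95.8% of the span from the start and a fold of 1.31.

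**Figure D4:**
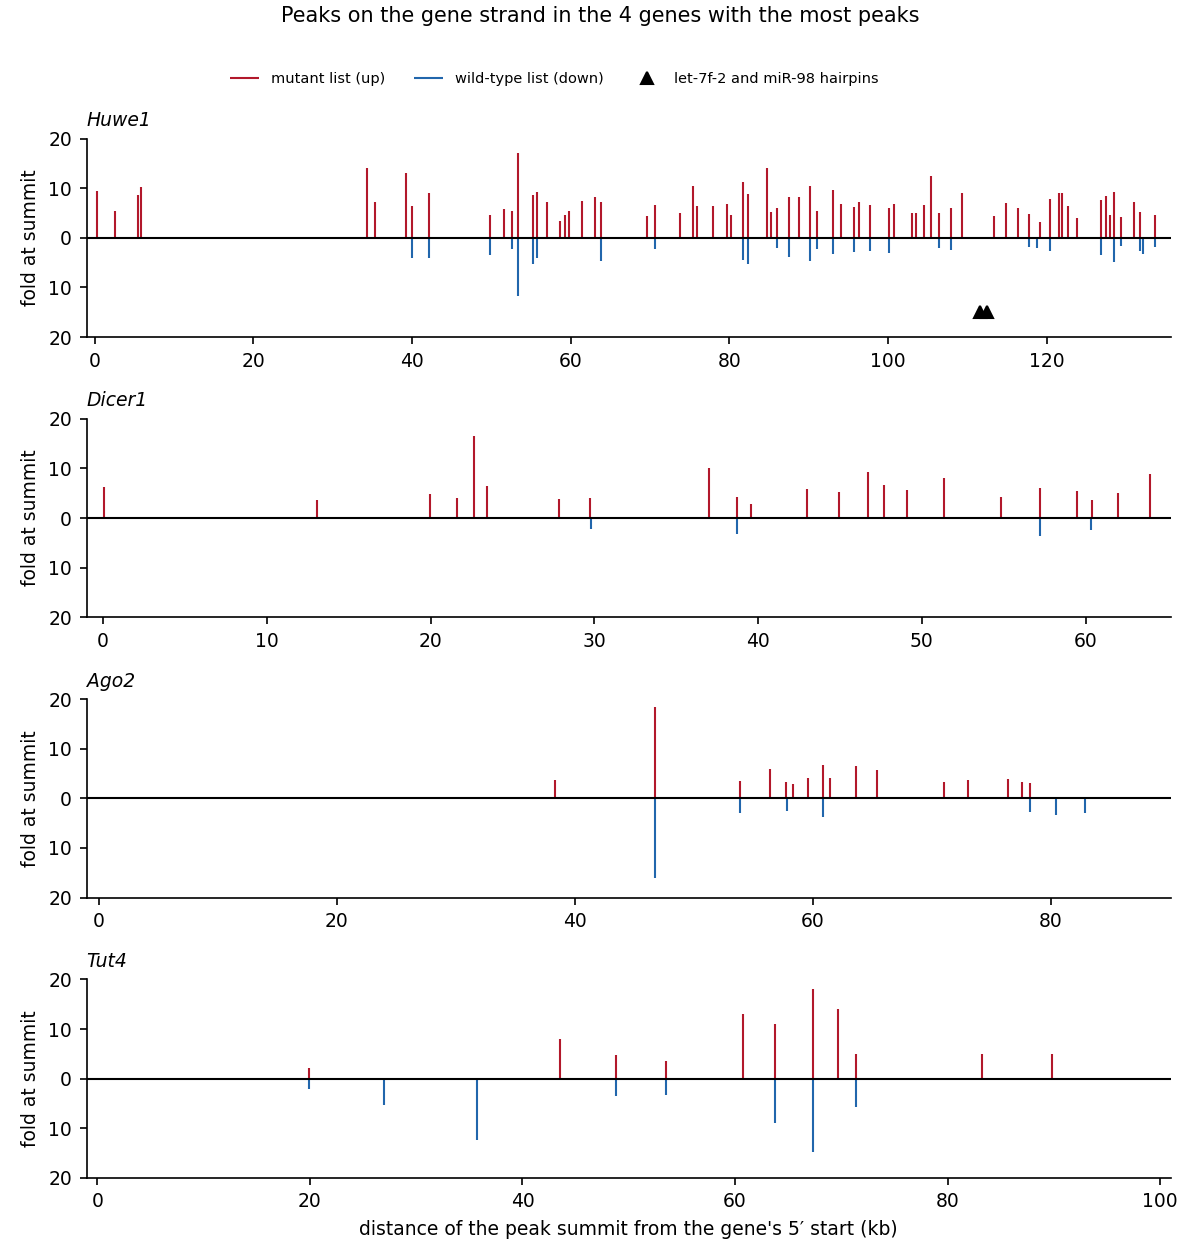
Peak summits on the gene strand in Huwe1, Dicer1, Ago2 and Tut4, by distance from the gene's 5′ start (kb), with the authors' fold at the summit drawn upward for the mutant list and downward for the wild-type list. Triangles mark the let-7f-2 and miR-98 hairpins in Huwe1. The strongest Huwe1, Ago2 and Tut4 peaks stand at the same place in both lists, and the strongest Dicer1 peak stands in the mutant list alone.

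Because Huwe1 hosts let-7 sequence, the other transcripts that do so were set beside it. They were chosen by position, as the genes of the tables whose span holds a let-7 or miR-98 hairpin on its strand, after the member values had been seen. The hairpins themselves were not listed as genes of their own. There were 8 such transcripts in both tables, and together they hold all 12 hairpins. In the mutant, 1 of the 8, Huwe1, was at least 2-fold above input, against 6.69% of all genes, and 4 were below, against 37.8%. With a pseudocount of 1, 1 of these 4 stayed below, Mir100hg. In the wild type, 3 were above, 6720427I07Rik, D630033A02Rik and Mir99ahg, against 8.59% of all genes, and 0 were below, against 23.3%. The Mir99ahg call is lost with a pseudocount of 0.1, at a log2 ratio of 0.90, or of 1, at 0.29.

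The transcript that holds let-7d, let-7f-1 and let-7a-1 lay opposite to Huwe1. This long noncoding RNA, 6720427I07Rik (13:48532905-48546500, minus strand), stood at 0.176 FPKM in the mutant IP and 0.598 in the mutant input, and at 6.01 FPKM in IP and 0.437 FPKM in input RNA of the wild type. It lay 3.28-fold below input in the mutant and 13.5-fold above input in the wild type, higher there than 98.6% of all genes. The wild-type list had a peak over its hairpins (13:48535497-48538161, fold 9.16), which covers let-7d and let-7f-1 and ends 18 bases from let-7a-1. The mutant list had 0 peaks in this gene.

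The transcript that holds let-7i was likewise high in the wild-type IP. D630033A02Rik (10:122985074-122986555, minus strand), annotated as a transcribed processed pseudogene, was listed at 0 in the mutant IP and at 0.339 FPKM in the mutant input, and stood at 2.84 FPKM in IP and 0.204 FPKM in input RNA of the wild type, 13.3-fold above input. A wild-type peak (10:122984995-122985548, fold 9.21) ended 92 bases from the let-7i hairpin, and the mutant list had 0 peaks in the gene. These inputs are low, so the size of the folds depends on the pseudocount. With 1 added in place of 0.01, the wild-type log2 ratio was 2.29 for 6720427I07Rik and 1.67 for D630033A02Rik. The mutant ratio of 6720427I07Rik was then −0.44, short of 2-fold, and it was −0.998 relative to genes of like span, also just short.

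Of all 1005 microRNA hairpins in the RefSeq table, 16 (1.59%) lay within 100 bases of a mutant peak and 17 (1.69%) within 100 bases of a wild-type peak on their strand. Of the 12 let-7 and miR-98 hairpins, 0 did so in the mutant list and 4 in the wild-type list, the 4 whose sequences with GGAG were printed as let-7d, let-7f-1, let-7a-1 and let-7i. The 3 hairpins of chromosome 13 lie in 1 transcript at 1 peak, so these are 2 loci. GGAG also occurs in hairpins of hosts that had no such peak, among them let-7g and let-7e. The limit of 100 bases was not planned, and it takes in let-7i, at 92 bases, by a small margin. Directly under a peak lay 14 of the 1005 hairpins in the mutant list and 13 in the wild-type list. Of the 12 let-7 and miR-98 hairpins, 0 and 2 did so. Those 2 were let-7d and let-7f-1, at the same peak.

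The remaining hosts did not share that pattern in full. Mir100hg, which holds let-7a-2, stood at 5.35 FPKM in the mutant IP and 12.7 in the mutant input, against 4.88 and 3.51 in the wild-type IP and input, with log2 ratios of −1.24 and 0.47. Lncppara, which holds let-7c-2 and let-7b, whose hairpins lack GGAG, stood at 0.269 in the mutant IP and 1.28 in the mutant input, against 1.89 and 2.37 in the wild type. Its log2 ratios were −2.21 and −0.32. Mir99ahg, with let-7c-1, was above input in both, at 0.48 and 1.15, but its level was below 0.5 FPKM in each library. Wdr82, with let-7g, had log2 ratios of −0.15 and −0.04, and Spaca6, with let-7e, −0.97 and −0.78.

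**Figure D5:**
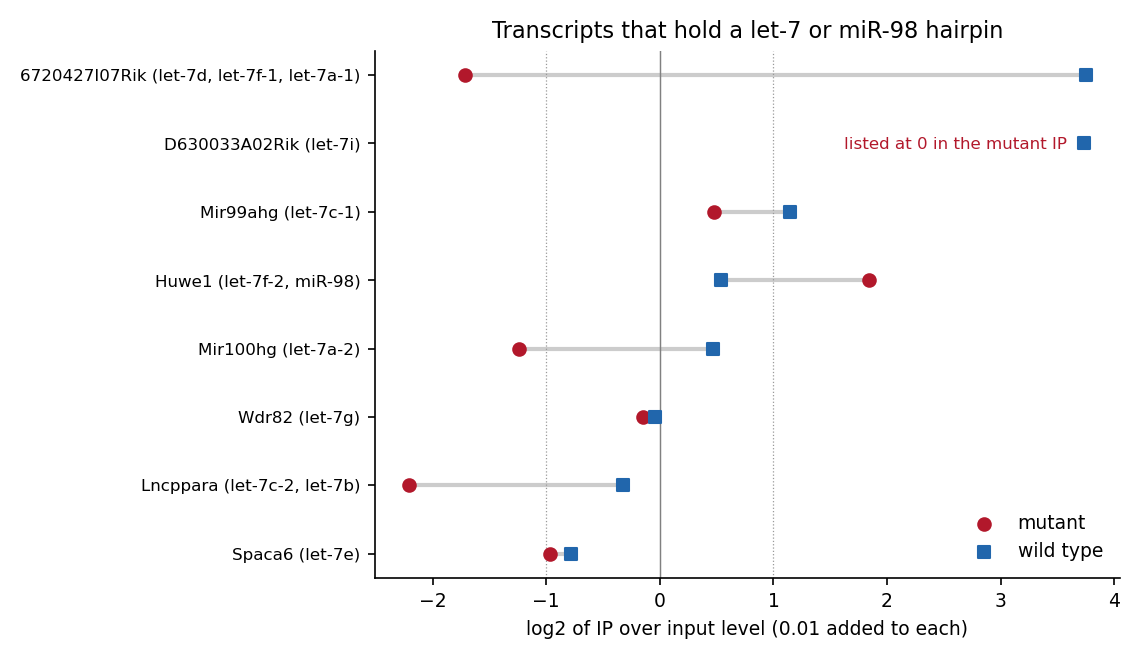
Log2 of IP over input level of the 8 transcripts whose span holds a let-7 or miR-98 hairpin (named in brackets), in the mutant (circles) and the wild type (squares), 1 library per group, with dotted lines at 2-fold. The hosts of let-7a-1, let-7d, let-7f-1 and of let-7i stand at 3.75 and 3.73 in the wild type, and Huwe1 stands farther right in the mutant, at 1.84. No point is drawn for D630033A02Rik in the mutant, whose IP level is listed at 0.

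A list of 52 other genes of microRNA processing, silencing, tailing and let-7 hosting was read in the same way. Of these, 37 were in the mutant table and 36 in both, with 3 of the 8 hosts above among them (Wdr82, Spaca6 and Mir99ahg). In the mutant, 4 were at least 2-fold above input, against 6.69% of all genes, and 4 below, against 37.8%. In the wild type 2 were above, against 8.59%, and 2 below, against 23.3%. Their median log2 ratio was 0.04 in the mutant and 0.02 in the wild type. By at least 1 on the log2 scale, 4 of the 36 had a higher ratio in the mutant than in the wild type, Tnrc6b, Ago1, Trim71 and Trim25, against 7.37% of all genes. Another 6 had a lower one, Srsf3, Ran, Hnrnpa2b1, Mettl1, Xrn2 and Prkra, against 26.1%.

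All 4 pathway genes above input in the mutant were silencing genes. Of the 9 of that kind measured, 4 were past 2-fold above input in the mutant (6.69% of all genes) and 0 in the wild type (8.59%). The Ago1 call is lost with a pseudocount of 1, at a log2 ratio of 0.93. Tnrc6b, a scaffold that Argonautes bind to silence mRNAs, was at 43.9 FPKM in the mutant IP and 15.9 in the mutant input, and at 12.4 FPKM in IP and 11.5 FPKM in input RNA of the wild type. Its log2 ratios were 1.46 and 0.11. Ago3 and Ago1, Argonautes like Ago2, had ratios of 1.45 and 1.01 in the mutant and 0.72 and −0.17 in the wild type, and Cnot1, the scaffold of the CCR4-NOT deadenylase, had 1.16 and 0.73. The helicase gene Mov10 was below input in both, with log2 ratios of −0.21 in the mutant and −1.05 in the wild type. Its wild-type call is lost with each table centred on its median, at −0.76, and relative to genes of like span, at −0.79.

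The partners of Dicer and export lay below input in the mutant. Ran, the GTPase that powers export by Xpo5, was at 47.8 FPKM in the mutant IP and 141 in the mutant input, against 105 and 101 in the wild-type IP and input. The Dicer partners Tarbp2 and Prkra had log2 ratios of −1.84 and −1.28 in the mutant and −1.01 and −0.22 in the wild type. All 3 were past 2-fold below input in the mutant, as were 37.8% of all genes. They are short genes, with spans of 4.25 to 18.1 kb against 64.2 kb for Dicer1, and relative to genes of like span all 3 calls are lost. On that scale the mutant log2 ratio was 0.042 for Ran, −0.55 for Tarbp2 and −0.70 for Prkra.

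Among the nuclear cofactors, the splicing factor gene Srsf3 stood at 36.5 FPKM in the mutant IP and 57.8 in the mutant input, and at 123 FPKM in IP and 50.9 FPKM in input RNA of the wild type. Its log2 ratio was −0.66 in the mutant and 1.27 in the wild type. Hnrnpa2b1, which codes for an RNA-binding protein of primary microRNAs, had −0.62 and 0.62. Of the tailing and turnover genes, 1 of 12, the tRNA methyltransferase gene Mettl1, was past 2-fold in the mutant. It stood at 1.97 FPKM in the mutant IP and 7.90 in the mutant input, 3.99-fold below input, and was 1.75-fold below input in the wild type. Relative to genes of like span its mutant log2 ratio was −0.72, short of 2-fold. Xrn2, a nuclear exonuclease gene, had −0.70 and 0.38. Trim25, reported as a cofactor of Lin28a and Tut4, had 0.57 and −0.53. Trim71, itself a known let-7 target, had 0.28 and −0.88, with levels of 2.34 FPKM in the mutant IP and 1.92 in the mutant input, against 0.102 and 0.197 in the wild type.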

How the data were processed

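RNA from anti-Flag IP and input was measured by stranded RNA-seq, 1 library for each of 4 groups, in 2 tables. HISAT2 2.1.0, MACS2 2.2.7.1, bedtools and HOMER 4.11.1 are named in the submitters' processing notes, with no role given. The deposited gene levels are taken as FPKM, which is an assumption, because no source used here names the unit. The deposited log2 ratio equals log2((IP + 0.01)/(input + 0.01)) of the levels to within 1.57e-09 in each table, and the authors' q-value (adjusted p-value) comes from their own method, which no source used here names. Peak lists as deposited hold a score, a fold and −log10 p and q for each peak, and no source used here names the control behind them.

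Ratios, percentiles and peak assignments were computed with Python 3.11.15, pandas 2.3.3 and scipy 1.17.1, with no filter on low values and a pseudocount of 0.01. No test was run, since each group holds 1 library. The ratio and peak calculations were checked on made values with known answers, which covers their arithmetic only. The genes named are all 10 members, the pathway genes past 2-fold or with a difference of 1, and the let-7 hosts. The members and lists were chosen with earlier results of these data known. Alternatives were other pseudocounts, thresholds, level filters, centring, span-matched ratios and peak thresholds. Coordinates are GRCm38, as in the deposited tables.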

Additional observations from a re-analysis of the deposited data

Results flagged for a closer look

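Several genes lay above input with 1 protein and below it with the other. Here this means the sign of the log2 ratio alone, with no 2-fold limit. The difference (mutant minus wild type, log2) was not tested in any of these genes, since each group holds 1 library. Among the members these were Lin28b (0.91), Dgcr8 (0.34) and Xpo5 (0.26). Among the other microRNA pathway genes the ratio was above input in the mutant alone for Ago1 (1.19), Trim25 (1.10) and Trim71 (1.17). It was above input in the wild type alone for Hnrnpa2b1 (−1.24), Srsf3 (−1.93), Ran (−1.61) and Xrn2 (−1.08), and for the let-7 hosts Mir100hg (−1.72) and 6720427I07Rik (−5.46). The host D630033A02Rik was also above input in the wild type alone, but it is listed at 0 in the mutant IP, so no difference is given. The signs are no longer opposite for Dgcr8, Xpo5 and Ago1 with each table centred on its median, nor for Ran, Srsf3 and Hnrnpa2b1 relative to genes of like span. Some of the ratios were near equality with input, among them Ran in the wild type at 0.05 and Xpo5 there at −0.08.

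The mutant list also held 12 peaks on the strand opposite to a member, against 0 in the wild-type list. Of these, 9 lay in Huwe1, 2 in Dicer1 and 1 in Ago2, and 9 of the 12 overlapped a peak on the gene's own strand. Over all genes, 2.21% held a peak on the other strand in the mutant list and 1.92% in the wild-type list.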

How the results depend on the processing

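Of the values that summarise the members, their peaks and the pathway list, 77 moved by less than 1.5 times under an alternative and 28 by more. Among the ratios of the named genes, 1 called value changed sign: Ran in the mutant was 0.042 relative to genes of the same span class. With each table centred on its median, the median of the members in the mutant was 0.88, Lin28b in the mutant was 0.90, the members above input in the wild type numbered 2, and those with a difference of at least 1 in favour of the mutant numbered 3. Relative to genes of the same span class, 0 members were above input in the wild type. At 1.5-fold, 2 members were above and 2 below input in the wild type, and 3 differed in favour of the mutant. Of the other pathway genes in the mutant, 11 were above input with centring and 8 relative to span, and 2 were below with centring, 0 relative to span and 11 at 1.5-fold. In the wild type, 1 was above and 1 below input with a pseudocount of 0.1 or of 1, 7 above and 0 below with centring, 5 above and 0 below relative to span, and 11 above and 6 below at 1.5-fold. A level of at least 1, or an authors' q-value under 0.05, left 1 above in the wild type. Without Huwe1, a setting chosen after seeing the data, the members held 54 mutant and 23 wild-type peaks, and at a peak fold of at least 4 they held 16 wild-type peaks. Except where the setting itself leaves out genes or peaks or shifts the scale, the cause was not tested. No paired analysis was possible because each group holds 1 library. Read depth is not given, so no counting error can be set on a level.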
